A study of Homo sapiens with 12 samples.

Results

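MKN45 is a human gastric cancer cell line that carries an amplified MET gene, and crizotinib is a small molecule that inhibits the MET receptor tyrosine kinase. The comparison described here is the response of MKN45 cells to crizotinib, and its members are the 3 arrays of crizotinib-treated MKN45 cells and the 3 arrays of untreated MKN45 control cells, 6 of the 12 arrays of the series. The labels give a crizotinib concentration of 1 µM, and the series compares 24 h of treatment with no treatment. MKN45 cells were grown in RPMI-1640 medium. The other 6 arrays hold SNU-5 cells, a second MET-amplified gastric cancer line, treated and untreated in the same way but grown in Iscove's medium, so that line and medium cannot be told apart. MKN45 is a single established line, and whether the replicates came from separate cultures is not given in the sources used here. The tests below rest on a spread pooled over all 12 arrays of both lines, which may be technical, so a gene has the same standard error for its change in either line.

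MET is the receptor of hepatocyte growth factor. When active it recruits adaptors that switch on the RAS, RAF, MEK and ERK kinase cascade, which induces early transcription factors, cyclin D1 and its own feedback inhibitors, and the PI3 kinase and AKT pathway, which holds FOXO transcription factors out of the nucleus and supports growth through mTORC1. In a cell with amplified MET both pathways run without added ligand, and ERK output feeds MYC, E2F-driven DNA replication, ribosome production and glycolysis.

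RNA levels were read on Illumina HumanHT-12 v4 arrays, which carry 47323 probes. The mean signal was 386 to 444 on the crizotinib arrays and 404 to 499 on the control arrays, and 19641 to 20170 and 19584 to 20248 probes were detected (detection p under 0.05). Arrays of the same group correlated at 0.98 to 0.99 and arrays of different groups at 0.93 to 0.95, and the first principal component, with 73.9% of the variance, separated the crizotinib arrays from the control arrays. All values below are log2 signals after background correction and quantile normalization, in which a difference of 1 is a 2-fold change. Of 9 tested epithelial markers, 8 were detected on all 6 arrays, with a summed normalized signal of 26830 to 28932 with crizotinib and 32888 to 36005 in controls. No endothelial marker of 10 passed detection, the 5 tested fibroblast markers had a summed normalized signal of 145 to 169 with crizotinib and 131 to 141 in controls, and the 5 tested leukocyte markers had 1273 to 1856 and 1814 to 2277, most of it from LYZ, a lysozyme that gastric epithelium also makes. Of 11 common housekeeping genes, 7 were lower and 0 were higher with crizotinib, with a summed normalized signal of 44602 to 46763 on the crizotinib arrays and 69179 to 79210 on the control arrays. The part of this shift in the results below was not tested.

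Crizotinib changed a large part of the measured transcriptome of MKN45 cells. A gene was called where any of its probes had a p under 0.001, changed 2-fold or more and kept an adjusted p (Benjamini-Hochberg) under 0.05. Of 12760 genes tested, 973 were called higher (7.63%) and 1019 were called lower (7.99%), with 1 gene called both ways by different probes. At the probe with the highest mean signal, which gives the value of each gene below, 201 genes were called and at least 4-fold higher and 141 genes were called and at least 4-fold lower, and at 16-fold the counts were 14 and 8. At an adjusted p under 0.05 alone, 2282 genes were higher (17.9%) and 2284 were lower (17.9%). This looser call is the one used for gene lists below, and each list is to be read against these shares. The median log2 change of all genes was 0.00, with quartiles of -0.38 and 0.40. A total of 727 called genes had more than 1 tested probe, and 95.2% of their 971 other probes changed in the same direction.

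**Figure D1:**
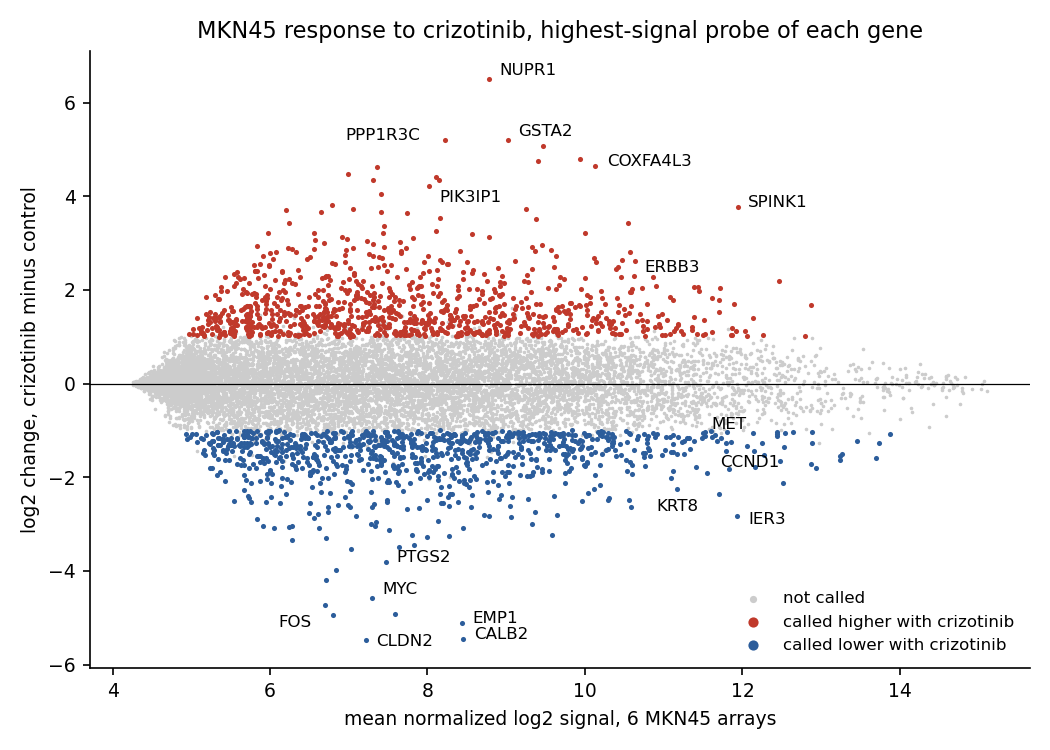
Log2 change (crizotinib minus control, vertical axis) against the mean normalized log2 signal of the 6 MKN45 arrays (horizontal axis) for 12760 genes, 1 point per gene at its highest-signal probe. Red points are called higher with crizotinib, blue points are called lower and grey points are not called. NUPR1 stands highest at 6.51, CALB2 at -5.46 is the lowest gene detected on all 6 arrays, CLDN2 beside it was not detected with crizotinib, and MET lies among the uncalled genes at -0.84.

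Among genes detected on all 6 arrays, GSTA2 and PPP1R3C had the largest rises. GSTA2, a glutathione transferase, had log2 signals of 11.62, 11.82 and 11.42 with crizotinib, against 6.02, 6.27 and 6.96 in controls, a log2 change of 5.20 (standard error 0.33, adjusted p = 1.5e-07). PPP1R3C, which targets protein phosphatase 1 to glycogen, had 10.84, 10.67 and 10.96 with crizotinib and 5.78, 5.02 and 6.08 in controls (log2 change 5.20, standard error 0.23, adjusted p = 8.1e-09). G0S2, an inhibitor of the triglyceride lipase ATGL, had 10.38, 10.39 and 10.18 with crizotinib and 5.59, 5.69 and 6.46 in controls (log2 change 4.40, standard error 0.20, adjusted p = 1.3e-08). In each of these genes the groups were separated by more than 3 log2 units, several times the spread within a group.

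The same range held CFAP276, a protein of ciliary axonemes (5.08), GSTA1 (4.80), FXYD2, a regulatory subunit of the sodium pump (4.74), COXFA4L3, a small mitochondrial protein related to a respiratory chain subunit (4.64), UGT2B17, a glucuronosyltransferase of steroids (4.34), WFDC2, a secreted protein with whey acidic domains (4.06), SPINK1, a secreted trypsin inhibitor (3.77), C1QTNF9B (3.73) and RDH5, a retinol dehydrogenase (3.66), all log2 changes with an adjusted p between 3.3e-09 and 5.3e-06. GSTA1 and GSTA2 are close paralogs whose probes may share signal. CFAP276 had a second probe with a log2 change of 0.14 (adjusted p = 0.67), so its rise rests on 1 probe. In 12 of the 15 largest rises control array 3 lay nearest to the crizotinib arrays, as for FXYD2, with 11.57, 11.88 and 11.90 with crizotinib and 5.92, 6.61 and 8.58 in controls. The 15 genes were picked for no overlap between crizotinib and control arrays, so that separation is built in. Without that control array 958 genes were called higher, of which 873 were among the 973 called with all arrays.

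Among the 15 largest falls of genes detected on all 6 arrays were EMP1, PTGS2 and CD55. EMP1, an epithelial membrane protein, had 6.33, 5.88 and 5.43 with crizotinib and 11.60, 10.77 and 10.60 in controls (log2 change -5.11, standard error 0.28, adjusted p = 6.1e-08). PTGS2, the inducible cyclooxygenase, had 5.60, 5.23 and 5.88 with crizotinib and 9.54, 9.29 and 9.32 in controls (log2 change -3.81, standard error 0.17), and its second probe changed by -3.18. CD55, which protects cells from complement, had 6.15, 5.98 and 6.22 with crizotinib and 9.79, 9.33 and 9.54 in controls (log2 change -3.44, standard error 0.22). The lowest control array stood above the highest crizotinib array by more than 3 log2 units in all 3 genes.

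Further members of this group were HAS3, a hyaluronan synthase (-3.50), LRP8, a lipoprotein receptor (-3.30), GAL, the precursor of the neuropeptide galanin (-3.28), F3, tissue factor, which starts blood coagulation (-3.24), REG4, a secreted lectin of intestinal metaplasia (-3.23), FGFBP1, which releases fibroblast growth factors from the matrix (-3.14) and ACOX2, a peroxisomal oxidase (-3.05), all log2 changes with an adjusted p of at most 2.5e-05. CALB2, a calcium-binding protein, had the largest fall by this rule at 1 probe (-5.46), while its other probe changed by 0.44 (adjusted p = 0.21).

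Of the genes named below, ETV4, S100A2, TNFRSF11B and CXCL1 were detected on 1 of 3 crizotinib arrays, and EXO1, PLK2, POLR3G and OASL on 2 of 3. A further set of genes passed between detected and not detected. Among called genes, 67 were detected on all 3 crizotinib arrays and on no control array, and 47 on all 3 control arrays and on no crizotinib array. For these a fold is a lower bound, the mean of the detected group against, on each array of the other group, the lowest log2 signal of any detected probe or the probe's own signal where higher. Genes detected with crizotinib alone rose at least 9.12-fold for GSTA5, another glutathione transferase, at least 8.52-fold for ELAPOR1, an endosome and lysosome protein, at least 6.60-fold for ANO3, a membrane protein of the anoctamin family, at least 5.63-fold for GABRP, a GABA receptor subunit, and at least 5.29-fold for CLIC6, a chloride channel protein. BEND5, the histone gene H2AC8 and TMED6, a cargo protein of the early secretory pathway, rose at least 6.15-fold, 5.73-fold and 5.41-fold.

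In the opposite direction, CLDN2, a claudin that forms pores in tight junctions, had 4.37, 4.42 and 4.65 with crizotinib and 10.05, 9.53 and 10.27 in controls, and was at least 34.1-fold lower (adjusted p = 4.9e-08). FOS, the early transcription factor of AP-1, had 4.31, 4.34 and 4.34 with crizotinib and 9.41, 9.29 and 9.11 in controls, at least 21.2-fold lower (adjusted p = 1.1e-09). Both genes were among the well detected transcripts of control cells and lay at the background of the array with crizotinib. TNFRSF1B, a TNF receptor, fell at least 15.5-fold, NNMT, which methylates nicotinamide, at least 6.66-fold, SPRR3, a cornified envelope protein, at least 5.36-fold, and C4BPB, a subunit of the complement regulator C4b-binding protein, at least 5.10-fold.

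MET, the target of the drug, had log2 signals of 11.01, 10.99 and 11.19 with crizotinib, against 12.44, 11.76 and 11.50 in controls, a log2 change of -0.84 (standard error 0.21, adjusted p = 0.0069) that was below the 2-fold threshold. MET was bright on all 6 arrays, and the first control array stood above the other control arrays. Of 13 tested genes for the receptor, its ligand and its activators, 4 were higher and 1, MET, was lower. The higher ones were PLXNB1, a semaphorin receptor that can pair with MET (1.30), LRIG1, which promotes turnover of receptor tyrosine kinases (1.27), ST14, matriptase, a protease that activates the MET ligand (1.11), and SPINT1, its inhibitor (0.63).

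Of 20 tested adaptors and kinases below the receptor, 3 were higher and 4 were lower. HRAS (-1.41), PTPN11, the SHP2 phosphatase (-1.13), and MAP2K1, the MEK1 kinase (-1.10), fell. GAB2, an adaptor (0.84), and PLCG1, a phospholipase (0.70), rose by less than 2-fold. Among 19 other receptor tyrosine kinases, 6 were higher and 4 were lower. ERBB3, a receptor that couples to PI3 kinase, had 11.83, 11.79 and 11.71 with crizotinib and 9.32, 9.52 and 9.60 in controls (log2 change 2.30, standard error 0.15, adjusted p = 1.7e-07). Its 2 other probes changed by 0.70 (adjusted p = 0.010) and 0.41 (adjusted p = 0.064). EPHA2, an ephrin receptor, fell by 2.88 on the log2 scale, and TYRO3 and RET, detected on no crizotinib array, fell at least 2.42-fold and at least 1.93-fold. Of 5 tested EGF family ligands, HBEGF fell (-2.74, adjusted p = 1.2e-06), BTC was higher (detected on no control array, at least 1.37-fold, adjusted p = 0.010), and NRG4, EREG and TGFA did not pass, with log2 changes of 0.35, -0.17 and 0.03.

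**Figure D2:**
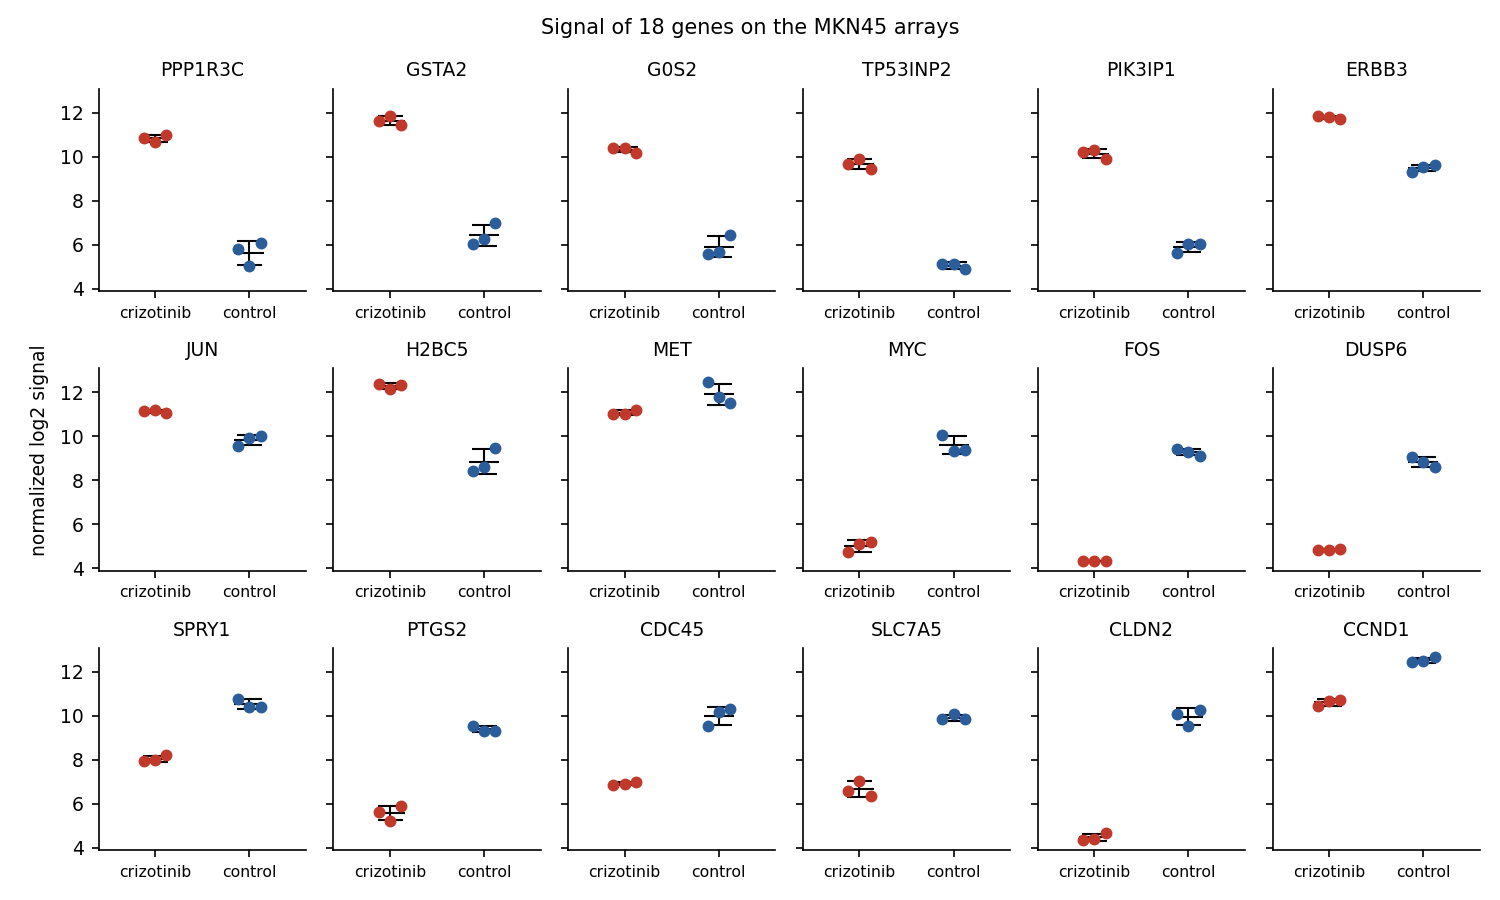
Normalized log2 signal (vertical axis) of 18 genes on the 3 crizotinib arrays (red, left) and the 3 control arrays (blue, right) of MKN45 cells, with the mean and the standard deviation of each group as black bars. MET lies at 10.99 to 11.19 with crizotinib and 11.50 to 12.44 in controls, whereas MYC, FOS and DUSP6 lie near 4 to 5 with crizotinib and near 9 to 10 in controls.

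Transcripts that report ERK activity fell together. Of 10 tested genes of this list, 9 were lower and 0 were higher, with a median log2 change of -2.41, against 0.00 for all genes. DUSP6, a phosphatase that switches off ERK and is itself induced by it, had 4.84, 4.85 and 4.87 with crizotinib and 9.07, 8.82 and 8.60 in controls (log2 change -3.98, standard error 0.15, adjusted p = 3.0e-09), with 1 of the 3 crizotinib arrays detecting it. The ETS factors ETV5 and ETV4 followed, ETV5 with 4.35, 4.30 and 4.34 with crizotinib and 9.28, 9.16 and 8.73 in controls (at least 18.3-fold), and ETV4 with a log2 change of -3.34. CCND1, cyclin D1, had 10.41, 10.68 and 10.70 with crizotinib and 12.42, 12.46 and 12.65 in controls (log2 change -1.91), so it remained one of the brighter transcripts of treated cells while falling.

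All 5 tested Sprouty and SPRED genes, inhibitors of RAS signaling that ERK induces, were lower, with a median log2 change of -2.35. SPRY1 had 7.94, 8.00 and 8.20 with crizotinib and 10.76, 10.40 and 10.39 in controls (log2 change -2.47, standard error 0.17, adjusted p = 2.9e-07). SPRED1 (-2.35), SPRED2 (-2.13) and SPRY2 (-1.41) fell, and SPRY4 fell at least 5.91-fold. The 12 dual-specificity phosphatases did not move as 1 group, since 4 were lower and 3 were higher. DUSP5 (-1.17) and DUSP2 (-0.97) fell, DUSP4 fell at least 2.72-fold, and DUSP8, which acts on JNK and p38, rose (1.10, adjusted p = 0.0064).

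Early transcription factors split as well. Of 22 tested, 6 were lower, 5 were higher and 11 did not pass, with a median log2 change of -0.14. MYC had 4.72, 5.11 and 5.20 with crizotinib, detected on 2 of 3 arrays, and 10.06, 9.32 and 9.39 in controls (log2 change -4.58, standard error 0.26), and its second probe gave -4.53. IER3, an early response gene, had 10.47, 10.62 and 10.48 with crizotinib and 13.27, 13.37 and 13.42 in controls (-2.83), and FOSL1, a FOS relative, fell by 1.86 on the log2 scale. JUN, the partner of FOS in AP-1, went the other way, with 11.14, 11.17 and 11.05 with crizotinib and 9.56, 9.92 and 10.00 in controls (log2 change 1.29, standard error 0.15, adjusted p = 2.3e-05).

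Genes that FOXO factors activate, together with feedback genes of PI3 kinase signaling, were mostly higher. Of 26 tested, 20 were higher and 2 lower, while 4 did not pass, with a median log2 change of 1.52. PIK3IP1, an inhibitor of PI3 kinase, had 10.21, 10.28 and 9.90 with crizotinib and 5.63, 6.04 and 6.03 in controls (log2 change 4.23, standard error 0.18, adjusted p = 6.5e-09). KLHL24 (2.72), BCL6, a transcriptional repressor (2.59), YPEL3, a growth suppressor (2.47), and ERBB3 also rose. Each of these 5 genes had all 3 crizotinib arrays above all 3 control arrays, which follows in part from their pick by the smallest adjusted p.

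**Figure D3:**
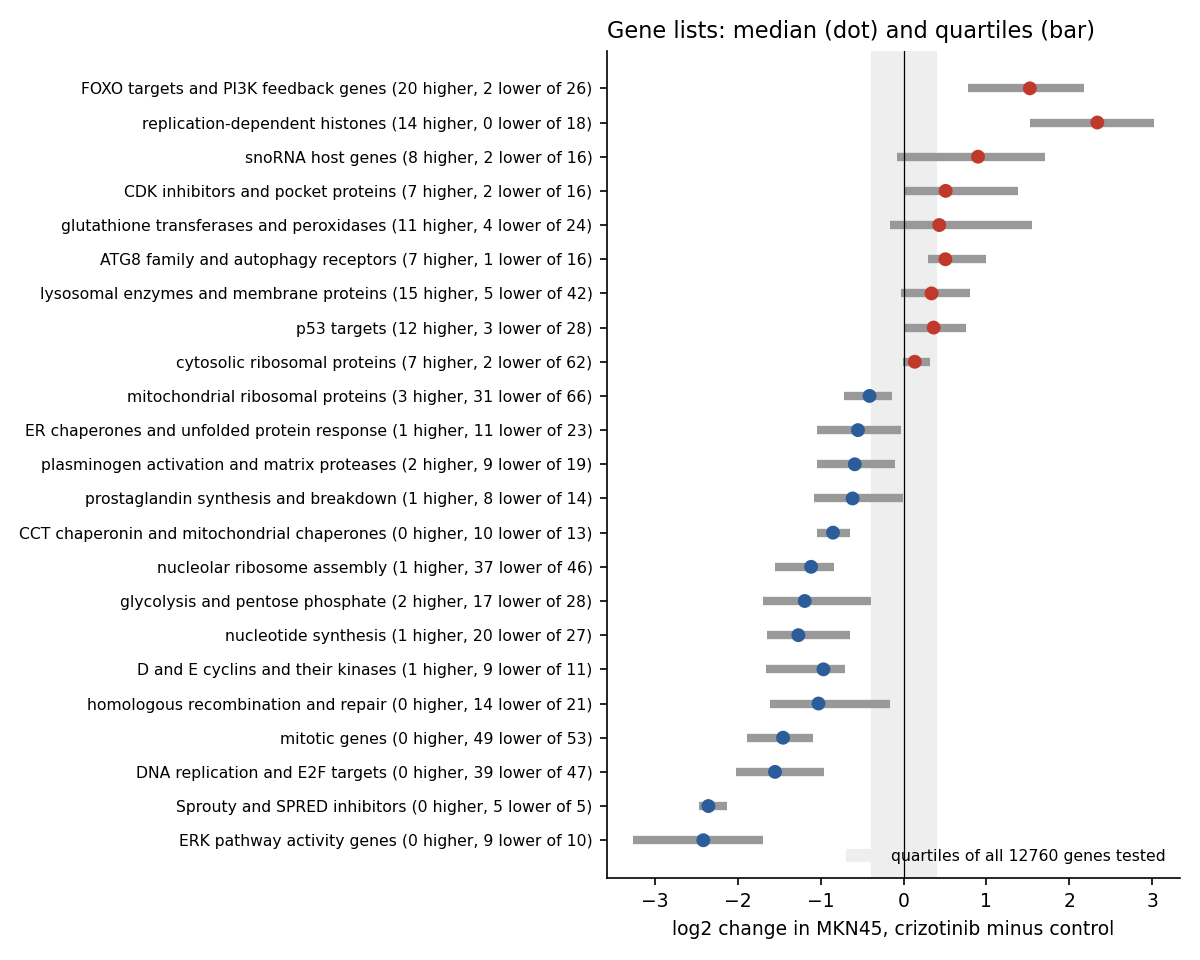
Median (dot) and quartiles (grey bar) of the log2 change in MKN45 (crizotinib minus control, horizontal axis) for 23 gene lists, with the number of genes higher and lower at an adjusted p under 0.05 beside each name. The shaded band holds the middle of all 12760 genes, -0.38 to 0.40, and the medians run from 2.34 for histone genes to -2.41 for ERK activity genes.

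Most tested genes of the cyclin, replication, mitotic, repair and nucleotide lists were lower. Of 11 D and E cyclins and their kinases, 9 were lower and 1 was higher (median log2 change -0.97). CCNE1, cyclin E1, had 6.20, 6.43 and 6.60 with crizotinib and 8.82, 9.17 and 9.24 in controls (log2 change -2.67, adjusted p = 2.5e-07), and CDC25A (-2.20), CDK6 (-1.40) and CDK2 (-1.24) fell. Of 16 CDK inhibitors and pocket proteins, 7 were higher and 2 were lower, among them BTG1, an antiproliferative gene (2.27), YPEL5 (2.27), CCNG2, a cyclin of resting cells (2.16), and RBL2, which encodes the pocket protein p130 (1.04), all higher.

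On the list of DNA replication and E2F targets, 47 genes were tested, of which 39 were lower, 0 higher and 8 did not pass, with a median log2 change of -1.55. MCM10, a replication initiation factor, had 5.31, 5.06 and 5.41 with crizotinib and 8.99, 8.53 and 8.84 in controls (log2 change -3.53, standard error 0.19, adjusted p = 4.5e-08). CDC45, a helicase component, had 6.85, 6.90 and 6.97 with crizotinib and 9.52, 10.15 and 10.30 in controls (log2 change -3.08, standard error 0.20). GINS2, another helicase subunit, had 7.44, 7.26 and 7.25 with crizotinib and 9.95, 10.16 and 10.22 in controls (log2 change -2.80). POLE2, a subunit of DNA polymerase epsilon (-2.62), and FEN1, the flap endonuclease (-2.44), fell by similar amounts. Of 27 genes of nucleotide synthesis, 20 were lower and 1 was higher, with CTPS1 (-2.65), TYMS, thymidylate synthase (-2.51), TK1, thymidine kinase (-2.39), DUT (-2.36) and NME1 (-2.13) leading. Of 21 genes of homologous recombination and repair, 14 were lower and 0 were higher, among them EXO1 (-3.09), RAD51AP1 (-2.82), RAD54L (-2.43) and BLM (-2.21).

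Of 53 tested mitotic genes, 49 were lower and 0 were higher, with a median log2 change of -1.45. SPC25, a kinetochore subunit, had 5.86, 5.68 and 6.06 with crizotinib and 8.91, 8.76 and 8.81 in controls (log2 change -2.96, standard error 0.23, adjusted p = 8.4e-07). CDCA3, a trigger of mitotic entry, had 6.63, 6.39 and 6.97 with crizotinib and 9.59, 9.69 and 9.50 in controls (-2.93). MELK (-2.42), CDCA5, which encodes the cohesin protector sororin (-1.91), and CENPA, the centromeric histone variant (-1.76), also fell. The groups did not overlap in any of these 5 genes. They had the smallest adjusted p of the list, so this separation is in part built in.

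Promoters of these genes were set beside the values, since members of both lists moved together. RefSeq promoters (GRCh38.p14, 250 bases before to 50 bases after the start, the first start listed for a gene) were matched by symbol for 10113 of the 12760 tested genes. They were searched on both strands for E2F sites (TTTCCCGC, TTTCCCGG, TTTCGCGC, TTTCGCGG, TTTGCCGC, TTTGCCGG, TTTGGCGC or TTTGGCGG), for the CHR element of mitotic promoters (TTTGAA or TTCGAA), for the CCAAT box (CCAAT), for the E-box (CACGTG) and for a FOXO site (GTAAACA). The windows below, from 80 bases before to 40 bases after the start on the gene's own strand, are shown because they carry the element of their list, and the capitals mark the E2F site in the first 4 and the CHR element in the last 4.
MCM10 (chr10:13161478-13161597, plus strand): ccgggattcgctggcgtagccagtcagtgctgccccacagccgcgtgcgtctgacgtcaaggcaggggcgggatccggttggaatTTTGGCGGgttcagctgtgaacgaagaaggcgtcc
CDC45 (chr22:19479840-19479959, plus strand): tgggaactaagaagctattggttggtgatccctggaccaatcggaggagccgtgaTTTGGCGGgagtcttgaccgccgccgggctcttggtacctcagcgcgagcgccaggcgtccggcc
GINS2 (chr16:85688915-85689034, minus strand): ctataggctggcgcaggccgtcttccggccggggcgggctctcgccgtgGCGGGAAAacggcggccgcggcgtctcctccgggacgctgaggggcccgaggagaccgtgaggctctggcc
UHRF1 (chr19:4909421-4909540, plus strand): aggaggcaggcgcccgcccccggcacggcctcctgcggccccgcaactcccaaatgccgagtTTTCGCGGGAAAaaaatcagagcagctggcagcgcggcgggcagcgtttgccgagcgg
SPC25 (chr2:168890391-168890510, minus strand): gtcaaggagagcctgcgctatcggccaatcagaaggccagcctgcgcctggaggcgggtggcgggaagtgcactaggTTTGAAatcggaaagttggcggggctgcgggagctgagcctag
CDCA3 (chr12:6851247-6851366, minus strand): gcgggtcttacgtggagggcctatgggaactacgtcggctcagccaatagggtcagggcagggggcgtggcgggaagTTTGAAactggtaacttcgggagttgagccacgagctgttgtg
CENPA (chr2:26785976-26786095, plus strand): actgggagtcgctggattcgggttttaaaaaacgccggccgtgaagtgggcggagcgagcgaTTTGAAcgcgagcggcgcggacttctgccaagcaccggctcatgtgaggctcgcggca
CDCA5 (chr11:65084001-65084120, minus strand): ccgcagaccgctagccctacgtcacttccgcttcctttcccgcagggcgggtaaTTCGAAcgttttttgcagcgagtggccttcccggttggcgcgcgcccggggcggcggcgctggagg

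The E2F sites began at position 6 in MCM10, -25 in CDC45 and -31 in GINS2, and 2 overlapping sites began at -18 and -14 in UHRF1, a maintenance factor of DNA methylation that fell by 1.81 on the log2 scale. The CHR elements began at -3 in SPC25 and CDCA3, -18 in CENPA and -26 in CDCA5. In the same window FEN1 held no E2F site and MELK no CHR element. An E2F site was found in 64.1% of the 39 promoters of the replication list, in 117 of 834 promoters of genes called lower, in 8.54% of 785 of genes called higher and in 9.31% of 8493 of tested genes not called, against 6.20% of all 27305 RefSeq promoters. The CHR element was found in 72.7% of 44 promoters of the mitotic list, in 17.6% of genes called lower, in 10.7% of genes called higher and in 11.3% of genes not called, against 16.6% of all promoters. The CCAAT box stood in 61.5% of the replication list and 68.2% of the mitotic list, against 35.7% of all promoters. The replication list was written to hold E2F targets, so its share of E2F sites follows in part from how it was made, and a match of letters is a description and not a binding site. Sites of AP-1 (TGACTCA), CREB (TGACGTCA), ETS factors (CCGGAAGT), ATF4 (TGATGCAA) and NRF2 (TGACNNNGC) and the CArG box of SRF were also searched, and their shares were 0.38% to 16.2% of genes called higher or lower, against 0.92% to 13.6% of all promoters. A FOXO site stood in 4 of 23 promoters of the FOXO and PI3 kinase list (17.4%), and in 3.41% of all promoters. Its share was 3.95% of genes called higher, 2.28% of genes called lower and 2.18% of genes not called. That list was written to hold FOXO targets, so its share also follows in part from how it was made.

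**Figure D4:**
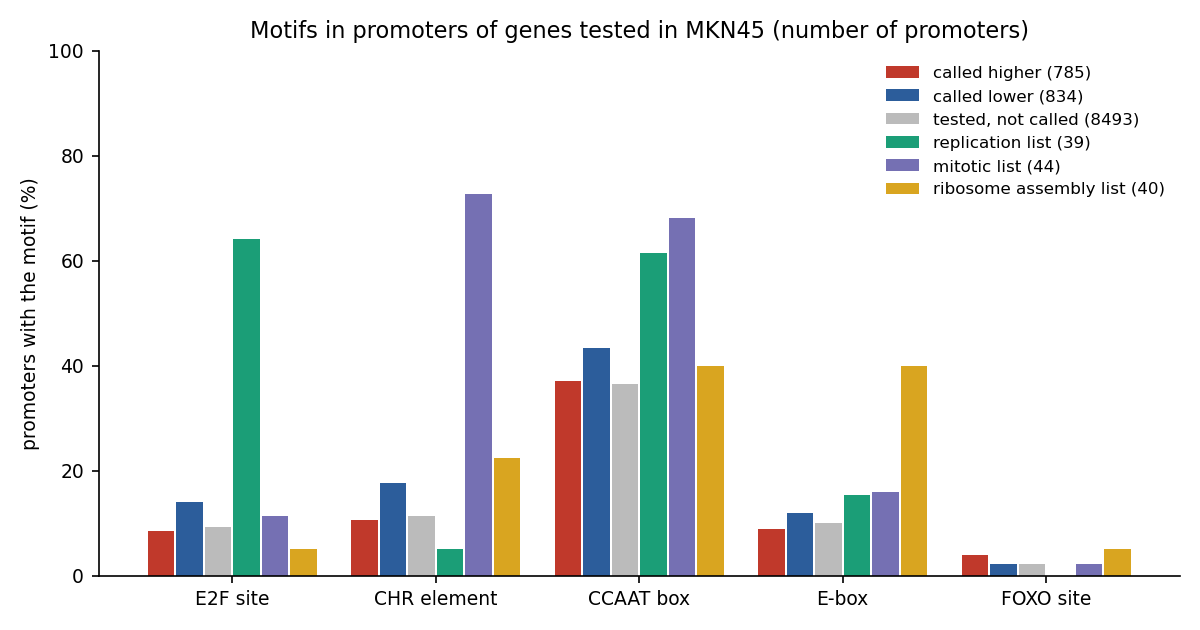
Share of promoters with each motif (vertical axis, percent) for genes called higher, called lower and not called in MKN45 and for 3 gene lists, with the number of promoters in the legend. E2F sites stand out in the replication list (64.1%) and CHR elements in the mitotic list (72.7%).

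Signals of replication-dependent histone genes moved against those of the replication list. These genes encode the core histones packaged onto new DNA, and their mRNAs normally end in a stem-loop in place of a poly(A) tail. Which of these forms the probes read was not tested. Of 18 tested, 14 were higher and 0 lower, while 4 did not pass, with a median log2 change of 2.34. H2AC6 had 11.15, 11.08 and 11.09 with crizotinib and 6.84, 7.02 and 8.30 in controls (log2 change 3.72, standard error 0.38, adjusted p = 9.2e-06). H2BC5 had 12.36, 12.13 and 12.30 with crizotinib and 8.43, 8.59 and 9.48 in controls (log2 change 3.43, standard error 0.23), and its second probe gave 3.51. H2BC8 (3.22, detected on 2 of 3 control arrays), H2BC21 (2.92) and H3C4 (2.41) rose too. Histone genes are near-identical copies, so the probes may share signal between them.

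Genes of ribosome assembly fell while ribosomal protein genes mostly did not pass. Of 46 tested genes of nucleolar ribosome assembly, 37 were lower, 1 was higher and 8 did not pass, with a median log2 change of -1.11. LYAR, a nucleolar factor, had 7.26, 7.00 and 7.11 with crizotinib and 10.08, 9.30 and 9.58 in controls (log2 change -2.53, standard error 0.21, adjusted p = 1.4e-06). NOLC1 (-2.10), PPAN (-2.10), NOP16 (-1.92) and RRS1 (-1.62), which act in nucleoli, also fell. Of the 40 promoters of this list, 16 held an E-box, against 7.43% of all promoters, 11.9% of those of genes called lower and 9.94% of those of genes not called. From 80 bases before to 40 bases after the start, LYAR, PPAN and NOP16 held no E-box. Of 32 subunits and factors of RNA polymerases I and III, 12 were lower and 3 were higher, with POLR3G (-2.76) lower and its paralog POLR3GL (1.13) higher.

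Of 62 cytosolic ribosomal protein genes, 7 were higher and 2 lower, while 53 did not pass (median 0.14), RPL28 (1.38) and RPL14 (1.35) being higher and RPL29 (-1.40) and RPS7 (-0.88) lower. By the call on any probe of a gene, 4 were higher and 5 were lower, so the balance depends on the probe. Of 66 mitochondrial ribosomal protein genes, 31 were lower and 3 were higher (median -0.41), the lower ones including MRPL17 (-1.37) and MRPS17 (-1.33). All 10 passing genes among 13 of the CCT chaperonin and mitochondrial chaperones were lower, with GRPEL1 (-1.24), HSPA9 (-1.14) and HSPD1 (-1.04) leading. Host genes of small nucleolar RNAs went the opposite way to ribosome assembly, with 8 of 16 higher and 2 lower (median 0.90). EPB41L4A-AS1 had 12.72, 12.72 and 12.78 with crizotinib and 10.62, 10.57 and 10.92 in controls (log2 change 2.04, adjusted p = 9.1e-07), SNHG5 (1.83), SNHG8 (1.78) and SNHG7 (1.68) rose, and SNHG15 fell (-1.16).

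The MYC network held genes of both signs. MLXIPL, the glucose-responsive factor ChREBP, had 9.36, 9.78 and 10.07 with crizotinib and 6.15, 6.65 and 6.66 in controls (log2 change 3.25, standard error 0.22, adjusted p = 2.3e-07). MXD4, a repressor that competes with MYC for MAX, had 10.85, 11.19 and 10.95 with crizotinib and 7.88, 8.41 and 8.56 in controls (2.72). MXD1, another repressor of that family, fell (-0.60, adjusted p = 0.014), but did not pass without crizotinib array 1 (adjusted p = 0.059) or 2 (0.066). Of 10 genes tested, 3 were higher and 2 lower, while 5 did not pass.

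Of 28 genes of glycolysis and the pentose phosphate pathway, 17 were lower, 2 were higher and 9 did not pass, with a median log2 change of -1.19. SLC2A1, the glucose transporter GLUT1, had 9.49, 9.52 and 8.95 with crizotinib and 11.98, 11.66 and 11.75 in controls (log2 change -2.48, standard error 0.17, adjusted p = 3.4e-07). HK2, hexokinase 2, had 7.22, 7.40 and 7.06 with crizotinib and 10.31, 9.63 and 9.67 in controls (-2.65), and TPI1 (-1.80), LDHA (-1.72) and ENO1 (-1.59) fell. PDK2, a kinase that inhibits pyruvate dehydrogenase, rose (2.18, adjusted p = 1.5e-06) in a list of 27 genes of fatty acid oxidation and ketogenesis in which 3 were higher and 2 lower, while 22 did not pass.

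Of 21 amino acid transporters, 7 were lower, 2 were higher and 12 did not pass. SLC7A5, the leucine transporter LAT1, had 6.57, 7.04 and 6.34 with crizotinib and 9.83, 10.06 and 9.83 in controls (log2 change -3.25, standard error 0.19, adjusted p = 8.0e-08), and SLC7A1 (-1.97) and SLC1A5 (-1.53) fell. Of 13 polyamine genes, 6 were lower and 2 were higher, with SRM (-1.87), AMD1 (-1.75) and ODC1, the rate-limiting decarboxylase (-1.55), lower and PAOX, which oxidises polyamines, higher (1.33). Of 34 tRNA synthetases, 12 were lower and 5 were higher. Of 65 nuclear-encoded genes of the respiratory chain, 18 were lower, 2 were higher and 45 did not pass (median -0.30).

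Of 17 tested glycogen genes, 4 were higher and 3 lower, while 10 did not pass (median 0.06), shares near those of all genes (17.9% each way). Beside PPP1R3C, STBD1, which anchors glycogen to membranes, rose (7.06, 7.34 and 6.86 with crizotinib and 5.18, 4.91 and 5.31 in controls, log2 change 1.95, adjusted p = 7.1e-06), whereas PGM2 (-1.32), GBE1, the branching enzyme (-0.90), and PYGL, liver phosphorylase (-0.64), fell. In cholesterol handling, ABCA1, which exports cholesterol, had 9.99, 9.75 and 10.05 with crizotinib and 6.55, 6.18 and 6.44 in controls (log2 change 3.54, standard error 0.19, adjusted p = 4.4e-08), and MYLIP, which degrades the LDL receptor, rose (1.71). Of 10 genes of cholesterol efflux 4 were higher and 1 was lower, and of 25 genes of cholesterol synthesis and uptake 2 were higher and 8 were lower.

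Stress programs of the endoplasmic reticulum held more lower than higher genes. Of 23 chaperones and genes of the unfolded protein response, 11 were lower and 1 was higher (median -0.55), with CRELD2 (-2.05), HSPA5, the chaperone BiP (-1.69), and SDF2L1 (-1.61) leading. Of 23 genes of the ATF4 and CHOP response, 9 were lower and 5 were higher, STC2 (-1.97), PSAT1, of serine synthesis (-1.88), and CBS (-1.47) being lower and VEGFA (1.49) higher. NUPR1, a stress-induced chromatin protein in the same list, had the highest change of all genes, with 11.78, 11.97 and 12.35 with crizotinib and 5.03, 4.73 and 6.82 in controls, 2 of 3 of them detected (log2 change 6.51, standard error 0.40, adjusted p = 1.2e-07). Its second probe gave 6.19, and the lowest crizotinib array lay nearly 5 log2 units above the highest control array.

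Of 35 genes of the machinery that forms autophagosomes, 8 were higher and 1 lower, while 26 did not pass (median 0.21), a share of higher genes close to the 17.9% of all genes. ULK1, the kinase that starts autophagy, had 11.18, 11.36 and 11.28 with crizotinib and 9.22, 9.77 and 9.77 in controls (log2 change 1.69, standard error 0.17, adjusted p = 6.4e-06), and WIPI1 (1.20), ZFYVE1 (1.11) and ATG14 (0.97) rose. Of 16 members of the ATG8 family and autophagy receptors, 7 were higher and 1 was lower. TP53INP2, which binds ATG8 proteins, had 9.66, 9.90 and 9.46 with crizotinib and 5.14, 5.14 and 4.89 in controls (log2 change 4.62, standard error 0.26, adjusted p = 7.4e-08). TP53INP1 (2.90), MAP1LC3A, an ATG8 protein (2.41), and GABARAPL1, another one (1.54), rose, and BNIP3, a mitophagy receptor, fell (-1.67). MAP1LC3A had another probe with a log2 change of 0.05 (adjusted p = 0.88).

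Of 42 lysosomal enzymes and membrane proteins, 15 were higher and 5 lower, while 22 did not pass (median 0.34). CLN3 (2.23), ARSA (1.06), MANBA (1.05) and SCARB2 (0.97) were higher, and CTSC, a cysteine protease, was lower (-1.42). The 16 tested V-ATPase subunits, which acidify lysosomes, had 2 higher and 3 lower. DEPTOR, an inhibitor of mTOR, had 10.23, 9.85 and 9.58 with crizotinib and 7.59, 7.21 and 7.82 in controls (log2 change 2.35, standard error 0.20, adjusted p = 1.5e-06), RRAGB, a Rag GTPase, rose (1.40), and MTOR itself fell (-0.73, adjusted p = 0.014). Of the 23 genes of this list 5 were higher and 1 lower, while 17 did not pass, and MTOR did not pass without control array 1 (adjusted p = 0.058), control array 2 (0.054) or crizotinib array 1 (0.050).

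Lists of p53 targets and of cell death genes held genes of both signs. The shares of the pro-apoptotic and pro-survival lists were near those of all genes (17.9% each way). Of 28 p53 targets, 12 were higher and 3 were lower (median 0.36), with TP53I3 (1.87) and SESN1 (1.66) higher and PLK2 (-1.62) lower. Of 28 pro-apoptotic genes, 6 were higher and 4 lower, while 18 did not pass (median -0.01). BMF, a BH3-only protein, had 8.67, 8.79 and 7.95 with crizotinib and 4.86, 4.73 and 4.84 in controls, 1 of 3 of them detected (log2 change 3.66, standard error 0.21, adjusted p = 7.6e-08), and CYCS, cytochrome c, fell (-1.06). Of 22 pro-survival genes, 2 were higher and 5 were lower, CFLAR, an inhibitor of caspase 8 (1.45), and the chaperone HSPB1 (0.69) being higher, and BIRC5, survivin (-1.36), and TNFRSF11B, a decoy receptor of TRAIL (-1.43), lower.

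Detoxification genes moved by family. Of 24 glutathione transferases and peroxidases, 11 were higher and 4 were lower (median 0.43). Beside GSTA1, GSTA2 and GSTA5, GSTA4 (2.47) and GSTZ1 (2.17) rose, and GPX2, the gastrointestinal glutathione peroxidase, fell (10.93, 11.00 and 10.82 with crizotinib and 12.86, 12.74 and 12.62 in controls, log2 change -1.82, adjusted p = 3.1e-06). Of 21 NRF2 targets, 7 were lower and 3 were higher, with ME1 (-1.74) and SRXN1 (-1.35) lower and ABCC3, an export pump, higher (1.82). Of 7 metallothioneins, which bind zinc and copper, 3 were higher and 0 were lower, and MT1E (2.24) and MT1F (1.96) led.

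Among 27 claudins and junction proteins, 10 were higher and 4 were lower. Against the loss of CLDN2 and a fall of CLDN1 (-1.64), CLDN3, a sealing claudin, had 12.00, 12.22 and 11.81 with crizotinib and 9.79, 10.31 and 10.37 in controls (log2 change 1.85, standard error 0.19, adjusted p = 8.8e-06), and CGN, cingulin (1.37), and ESRP1, an epithelial splicing factor (1.18), rose. Of 12 keratins, 2 were higher, 3 were lower and the other 7 did not pass. KRT8 (-2.36) and KRT19 (-0.70), keratins of simple epithelia, fell, and KRT15 rose (1.99). Of 13 integrin and laminin-332 genes, 1 was higher, 2 were lower and 10 did not pass. LAMB3, a chain of laminin-332, rose (11.28, 11.40 and 10.70 with crizotinib and 8.85, 8.99 and 8.78 in controls, log2 change 2.26, adjusted p = 1.5e-06), while the laminin receptor subunit ITGA6 fell (-1.57). Of 8 tested genes of the mesenchymal switch, 0 were higher and 1, TGFBR2, was lower (-0.74).

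Of 27 genes of gastric and intestinal differentiation, 4 were higher and 6 lower, while 17 did not pass. TFF1, a trefoil peptide of the gastric surface, had 6.72, 6.74 and 6.80 with crizotinib and 9.00, 9.43 and 9.31 in controls (log2 change -2.49, standard error 0.16, adjusted p = 1.7e-07), and CEACAM6 fell (-2.26). SOX2, a transcription factor of the stomach, had 9.94, 9.93 and 9.36 with crizotinib and 7.53, 7.36 and 7.27 in controls (2.35), and CDX2, a transcription factor of the intestine, rose as well (1.67). Among Wnt targets, the inhibitor DKK1 (-2.49) and SOX9 (-2.19) fell, and ASCL2, a transcription factor of intestinal stem cells, rose (2.02).

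Lists of prostaglandin, protease and calcium-binding genes held more lower than higher genes. Of 14 genes of prostaglandin synthesis and breakdown, 8 were lower and 1 was higher, among them PTGER2, a receptor of prostaglandin E2, with 4.58, 4.44 and 5.11 with crizotinib and 7.66, 7.46 and 8.18 in controls (log2 change -3.06, 1 of 3 crizotinib arrays detected), CBR1 (-1.23) and PTGES3 (-1.12). Of 19 genes of plasminogen activation and matrix proteolysis, 9 were lower, 2 were higher and 8 did not pass, with PLAU, urokinase (-2.08), SERPINB5, maspin (-1.79), and TIMP1 (-0.91) lower beside F3, and MMP7, matrilysin, at least 3.87-fold lower. Of 12 S100 and EF-hand proteins, 7 were lower and 0 were higher, S100P (-1.55) and S100A2 (-1.75) among them.

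Immune genes changed little as groups. Of 20 tested NF-kappaB targets and chemokines 17 did not pass, and of 36 interferon-stimulated genes 26 did not pass, with 4 higher and 6 lower. HERC5 (-1.32) and OASL (-1.19) were lower, EPSTI1 was higher (0.99), and CXCL1 fell (-1.27). Of 16 genes of MHC class I presentation, 3 were higher and 1 was lower, HLA-E (1.60) and TAP1 (0.82) being higher and TAP2, which pairs with TAP1 in the peptide transporter, lower (-1.58). Among 10 DNA methylation genes, 5 were lower and 0 were higher, HELLS (-1.88), UHRF1 and DNMT1, the maintenance methyltransferase (-1.40), with the largest falls, and among 20 histone demethylases 4 were higher and 3 were lower, KDM5B (1.26) and KDM6B (1.18) being higher. HELLS, UHRF1 and DNMT1 are also on the list of DNA replication and E2F targets, so their falls are counted in both lists.

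The difference between the MKN45 and the SNU-5 change was tested in the same limma fit. It was called more positive in MKN45 for 477 genes (3.74%) and more negative for 458 genes (3.59%). Of the 973 genes called higher in MKN45, 269 were also called for a more positive change than in SNU-5, and of the 1019 called lower, 166 were called for a more negative one. The MKN45 change enters both calls, so part of this overlap is built in. In SNU-5 itself, 375 of the 973 genes were also called higher and 538 of the 1019 were also called lower. The opposite call in SNU-5 was made for 8 of the 973 and 9 of the 1019. The share of all tested genes called in SNU-5 is not given here, so these counts do not measure agreement. Of the lists above, no mitotic gene, no gene of homologous recombination and repair and no respiratory chain gene was called for a difference in either direction, which does not show that the lines responded alike. For nucleolar ribosome assembly 6 genes were more positive and 0 more negative in MKN45, and the list medians were -1.11 in MKN45 and -1.47 in SNU-5.

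PPP1R3C had a log2 change of 5.20 in MKN45 and 0.27 in SNU-5 (difference 4.92, standard error 0.32, adjusted p = 1.7e-06). COXFA4L3 had 4.64 in MKN45 and -0.10 in SNU-5 (difference 4.74, standard error 0.25). FXYD2, G0S2 and WFDC2 were detected on no SNU-5 array, as were PTGS2 and CEMIP, a hyaluronan-binding protein, among the falls, so that the comparison sets a change in MKN45 against background in SNU-5. MUC13, a membrane mucin, NABP1, a single-strand DNA-binding protein, and GPX2 were detected on all arrays of both lines and moved in opposite directions, MUC13 by -1.35 in MKN45 and 2.61 in SNU-5, NABP1 by -1.74 and 1.83, and GPX2 by -1.82 and 1.55.

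JUN was a further gene of opposite sign, with log2 changes of 1.29 in MKN45 and -1.51 in SNU-5 (adjusted p of the difference = 4.1e-06). DEPTOR (2.35 in MKN45 and -0.91 in SNU-5), SERPINB5 (-1.79 and 1.56) and S100P (-1.55 and 1.11) were also called for the difference. Where feedback genes differed, the direction was not uniform. SPRY1 fell more in MKN45 (-2.47, against -0.60 in SNU-5). SPRY2 fell less in MKN45 (-1.41, against -2.59), from similar mean control log2 signals of 8.76 in MKN45 and 8.69 in SNU-5. DUSP5 also fell less (-1.17, a difference of 2.83 from SNU-5). Its mean control log2 signal was 6.41 in MKN45 and 11.11 in SNU-5, and its mean with crizotinib was 5.24 and 7.12. DUSP5 thus had less room to fall in MKN45, so its difference does not show a weaker response.

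**Figure D5:**
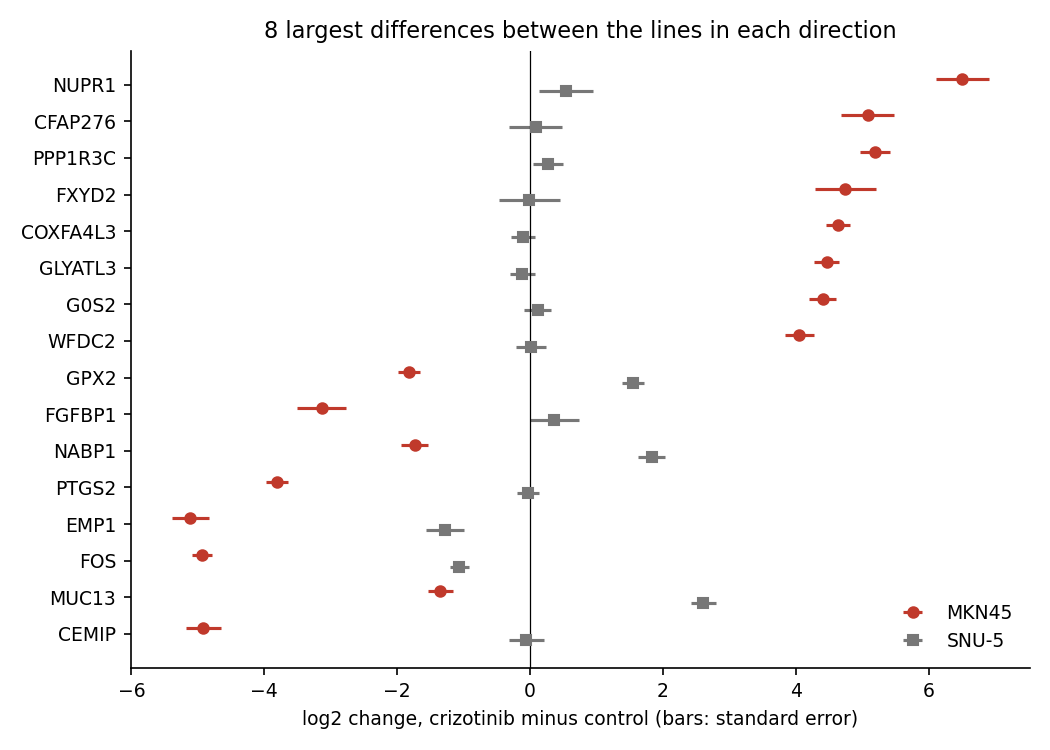
Log2 change with crizotinib (horizontal axis) in MKN45 (red circles) and SNU-5 (grey squares) for the 8 largest differences between the lines in each direction, among genes called both for the difference and in MKN45, with bars for the standard error. The upper 8 genes changed by 4.06 to 6.51 in MKN45 and by -0.12 to 0.54 in SNU-5, and MUC13, NABP1 and GPX2 lie on opposite sides of 0.

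At the fold threshold, POMT1 and DEGS2 were just inside as rises and VKORC1L1 just inside as a fall, each with a p under 0.001. GLB1, with 11.24, 11.33 and 10.82 with crizotinib and 10.12, 10.25 and 10.04 in controls, and HYDIN, with 5.20, 5.36 and 5.27 with crizotinib and 5.96, 6.32 and 6.56 in controls, were just outside. The log2 changes of all 5 genes round to the 2-fold threshold itself. Without background correction the log2 changes of the 46 largest rises, falls and switches named above were smaller by 0.04 to 1.23, with a median of 0.79.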

How the data were processed

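Total RNA of 12 samples (MKN45 and SNU-5 cells, crizotinib or control, 3 each) was hybridised to Illumina HumanHT-12 v4 arrays. The deposited table holds, per the file headers, a signal intensity and a detection p-value per probe and array, not normalized by the authors. The deposited log2 values, which the authors quantile-normalized in limma, served as an alternative. Probe names came from the platform annotation (30113 probes with 1 symbol, 8 with several, 17202 with none).

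Signals were background-corrected with the detection p-values, given an offset of 16, quantile-normalized and log2-transformed (neqc, limma 3.58.1, R 4.3.3). Probes detected at p under 0.05 on at least 3 of 12 arrays were kept, 23525 in all, of 12760 genes. Group means were fitted with lmFit and eBayes over all 12 arrays, with contrasts for each line and for the difference between lines, and p-values were adjusted by the method of Benjamini and Hochberg, so every adjusted p given is from limma. Of these probes 2826 were called in MKN45. A gene's change is that of its probe with the highest mean signal. On simulated data for the MKN45 comparison with 23525 probes, the calls held 95.5% of probes with a true log2 change of 2.5, 92.5% at 1.5 and 1.49% at 0.7. A change of 0.7 is under the 2-fold threshold, so its share does not measure detection. The simulated noise was normal and independent between arrays, without a background floor or array effects, so these shares may not hold for the real arrays. The number of arrays limits the precision.

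Named genes were the 15 largest rises and falls detected on all 6 arrays without overlap, the 8 largest bounds each way, at most 5 per list, taken by adjusted p, the 8 largest line differences each way, MET, MYC and genes at the threshold, and the text names part of them. The gene lists and the comparison were chosen with earlier results of these data known. Some genes are on several lists, as DUSP6 on the ERK and dual-specificity phosphatase lists, so the list counts are not independent. Alternatives covered the normalization, the deposited values, the filter, the samples in the fit, the study's random variance test, the fold threshold, the choice of probe, a replicate block and leaving out each array. The labels number the replicates in each group but do not say what a number shares. Deviations from the group means correlated at 0.113, 0.329 and 0.111 between MKN45 arrays of the same number, and at -0.315 to 0.142 between those of different numbers. In SNU-5 these ranges were 0.012 to 0.449 and -0.364 to 0.264. Each MKN45 pair was above 0.1, but the arrays of different numbers overlap this range, so the pairing is weak and the block was kept as an alternative.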

Additional observations from a re-analysis of the deposited data

Results flagged for a closer look

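The change with crizotinib differed between MKN45 and SNU-5 cells for 16 genes, the 8 largest differences each way among genes called for the difference and in MKN45, each tested in the limma fit and given as the MKN45 change minus the SNU-5 change on the log2 scale. It was more positive in MKN45 for NUPR1 (5.97), CFAP276 (4.99), PPP1R3C (4.92), FXYD2 (4.76), COXFA4L3 (4.74), GLYATL3 (4.58), G0S2 (4.29) and WFDC2 (4.04). It was more negative in MKN45 for CEMIP (-4.86), MUC13 (-3.96), FOS (-3.88), EMP1 (-3.83), PTGS2 (-3.78), NABP1 (-3.57), FGFBP1 (-3.51) and GPX2 (-3.37). FXYD2, G0S2, WFDC2, PTGS2 and CEMIP were detected on 0 of 6 SNU-5 arrays, and PPP1R3C, CFAP276 and GLYATL3 on 1. FOS was detected on 3, with mean control log2 signals of 9.27 in MKN45 and 5.41 in SNU-5. With crizotinib FOS lay at background in both lines (4.33 and 4.35), so its fall in SNU-5 could not go further. COXFA4L3 was near background in SNU-5, with means of 5.20 with crizotinib and 5.30 in controls. Line and medium cannot be told apart.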

How the results depend on the processing

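The count of probes called in MKN45, 2826 here, fell to 1872 with quantile normalization without background correction and to 1871 with the deposited log2 values. The counts of genes stayed within 1.5 times in every alternative run. Dropping 1 of the 12 arrays at a time gave 2481 to 3043 probes, 860 to 1026 genes higher, 903 to 1102 genes lower, and 365 to 536 and 365 to 553 genes with a more positive and a more negative change in MKN45 than in SNU-5. With the replicate block, 997 genes were higher, 1050 were lower, and 3 named genes (MXI1, ATP6AP1 and COL1A1) lost an adjusted p under 0.05. Of 354 named genes, 331 passed, none of these reversed, and 19 lost the test in some alternative, ABCA3, RNF43, ATG5, MT1H and COL1A1 with both other normalizations, and MTOR and MXD1 when an array was left out. The 4 genes that changed sign when an array was left out had not passed, with log2 changes of -0.112 to 0.122 for CD14, -0.221 to 0.0165 for ITGAM, -0.0903 to 0.111 for TGFA and -0.431 to 0.195 for MT1X. With each other normalization, 22 of 66 list medians moved by at least their standard deviation over the 3 crizotinib arrays. Leaving out 1 MKN45 array moved 5 to 21 of them, and a filter on detection in MKN45 alone moved 14. Fitting the MKN45 arrays alone leaves every log2 change as it was, so the list medians could not move. In that fit 3 named genes lost an adjusted p under 0.05 and 3 gained it. Dim genes limit the comparison, since a probe near background gives a bound or a compressed change.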
